A study of Rattus norvegicus with 6 samples.

Results

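The genes described here encode the chains of the collagens, and the question was whether their RNA levels differ between the aortae of hypertensive rats and those of their control strain. A probe set (a group of short probes that report 1 transcript on a microarray) was included when the platform annotation gave it a single gene symbol made of Col, a number, the letter a and a number. The rule found 37 probe sets of 28879 on the array, for 36 genes of 24 collagen types, with 2 probe sets for Col5a1. All 37 passed the filter on dim signals, which removed probe sets whose mean log2 level over the arrays was under 1.17. The RefSeq gene table lists 44 rat genes with such a symbol. The other 8 (Col4a6, Col6a1, Col6a4, Col6a5, Col9a3, Col22a1, Col25a1 and Col28a1) had no probe set with that symbol alone and were not analysed here.

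The thoracic aorta was taken from 24-week-old rats of the strain SHR (spontaneously hypertensive rats), inbred for high blood pressure, and of its related normotensive strain WKY (Wistar-Kyoto) at the same age. Neither strain received a treatment beyond a blood pressure reading at the tail, and fat and connective tissue were cleaned from the vessels. Each strain had 3 arrays. No label states that they came from different animals, so a p-value reflects the spread among arrays, part or all of which may be technical. Values below are log2 levels, listed as replicate 1, 2 and 3 of SHR and then of WKY, and a difference is SHR minus WKY with the standard error (SE) of the limma fit.

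Every collagen is built of 3 chains wound into a helix, from 1, 2 or 3 different genes. Fibril-forming collagens give the vessel wall its tensile strength, type 4 forms the sheets of basement membrane under the endothelium and around smooth muscle cells, and type 8 forms short-chain lattices in the wall. Fibril-associated collagens coat the fibrils, and others sit in the cell membrane or carry sugar-bearing domains. New chains are hydroxylated and folded inside the cell, then trimmed and cross-linked outside it.

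The labelled tissue was checked with marker genes. All 6 measured smooth muscle markers lay above the median signal of every array, and their mean level lay between 9.33 and 9.71. White adipocyte markers averaged 7.85, 6.06 and 4.36 in SHR, against 7.75, 6.32 and 6.41 in WKY, with all 8 measured. Adventitial fibroblast markers averaged 7.29, 6.22 and 5.54 in SHR, against 6.97, 6.83 and 6.34 in WKY, also with all 8 measured. The SHR arrays covered a wider range than the WKY arrays on both lists, with replicate 1 highest and replicate 3 lowest in SHR. Endothelial markers, at 6.25, 5.14 and 4.46 in SHR, against 6.22, 5.67 and 5.64 in WKY, had the same order in SHR. So did macrophage markers, at 6.13, 4.66 and 3.83 in SHR, against 5.48, 4.55 and 4.56 in WKY. The means of the brown adipocyte and Schwann cell lists also had that order in SHR. The smooth muscle and striated muscle lists had the reverse order, and the chondrocyte and mesothelium lists neither. In bulk tissue, fewer cells of a type and less RNA per cell cannot be told apart. Among 7 measured chondrocyte markers, 4 lay below every array median, and the list averaged between 1.62 and 1.99. WKY replicate 3 stood apart, with the narrowest spread of values (SD 2.12 over probe sets, against 2.22 to 2.27 on the other arrays) and a median of 2.52, against 2.29 to 2.33 elsewhere. The difference of every chain is therefore plotted with and without that array, and many differences in the text are given both ways.

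No collagen chain gene passed the test between the strains. At an adjusted p under 0.05 the count was 0 of 36, where 0.0693% of all 21659 tested probe sets passed (limma, 15 probe sets). At an unadjusted p under 0.05 the count was 2 of 36, Col8a1 higher and Col6a6 lower in SHR, where 5.55% of all probe sets met that level. The 3 SHR arrays lay wholly on one side of the 3 WKY arrays for 1 gene, Col8a1, where 12.1% of all probe sets were separated in that way. Measured differences were above 0 for 18 chains and below 0 for 18, and their median was 0.0012, against 0.0055 over all 15281 tested genes. Of the 36 chains, 28 lay above the median of every array and 1, Col26a1, lay below every median. The remaining 7 (Col2a1, Col6a6, Col7a1, Col9a1, Col10a1, Col20a1 and Col24a1) lay near or under the medians on some arrays. The files give no call of detection, so these levels are not shown to lie above background. The map of deviations by array shows Col8a1 as the only chain with all SHR arrays above all WKY arrays, and a column of high values on WKY replicate 3.

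**Figure D1:**
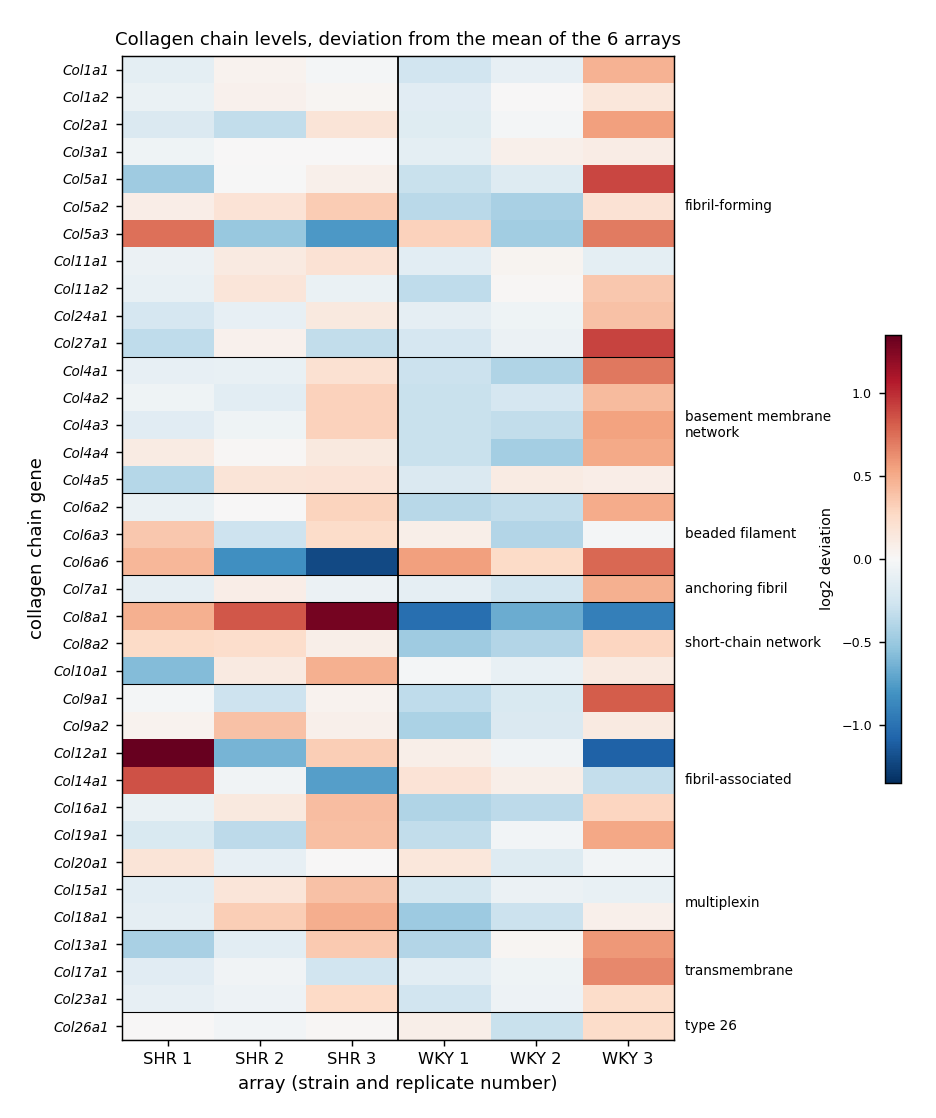
Deviation of each of the 36 collagen chain genes (rows, grouped by family) from its own mean over the 6 arrays (columns), in log2 units on a colour scale from blue (below the mean) to red (above). Col8a1 is above its mean on all 3 SHR arrays and below it on all 3 WKY arrays, and WKY replicate 3 holds the highest WKY value for 28 of the 36 chains.

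The short-chain collagens held the chain with the largest measured difference. Col8a1 encodes a chain of type 8 collagen, which vascular smooth muscle and endothelial cells make during growth and repair of the wall. Its level was 6.54, 6.91 and 7.36 in SHR, against 5.05, 5.40 and 5.15 in WKY, a mean of 6.93 ± 0.41 in SHR and 5.20 ± 0.18 in WKY (SD, n = 3 each). The lowest SHR array was above the highest WKY array, and the difference was 1.74 ± 0.23 (limma adjusted p = 0.0848). It ranked 24 by p among the tested probe sets, where 15 passed. At an adjusted p under 0.10, a level met by 0.139% of all probe sets, it was the 1 chain of 36. With arrays weighted by their fitted precision the difference was 1.74 at a limma adjusted p of 0.0203, a setting in which 0.3% of probe sets passed. Without SHR replicate 1 and WKY replicate 3, a choice made after the data had been seen, it was 1.91 at 0.0490, with 0.531% of probe sets passing. The weighted fit also gave these arrays the least weight, 0.69 and 0.22, against 1.08 to 2.05 for the others. Leaving out 1 array at a time gave differences between 1.53 and 1.93, at limma adjusted p-values between 0.0820 and 0.446. Within SHR, Col8a1 was lowest on replicate 1 and highest on replicate 3. The means of the white and brown adipocyte, fibroblast, endothelial, macrophage and Schwann cell markers had the reverse order. The smooth muscle markers had the same order as Col8a1 in SHR, at 9.33, 9.57 and 9.68, against 9.55, 9.62 and 9.71 in WKY. With the mean of the white adipocyte markers as a covariate the difference was 1.57 (limma adjusted p = 0.0507).

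Col8a2 encodes the other chain of type 8 collagen. Its level was 4.26, 4.24 and 4.08 in SHR, against 3.53, 3.60 and 4.29 in WKY. The first 2 WKY arrays lay below all SHR arrays and WKY replicate 3 lay above them, so the strains overlapped. The difference was 0.38 ± 0.22 (limma unadjusted p = 0.128, adjusted p = 0.923), and 0.63 without WKY replicate 3 (limma unadjusted p = 0.00262). The smallest limma adjusted p of Col8a2 on leaving out 1 array was 0.415. Col10a1, the short-chain collagen of growth plate cartilage, was measured at 1.41, 2.11 and 2.47 in SHR, against 1.97, 1.89 and 2.11 in WKY, around or under the array medians, and the strains did not differ beyond their spread (difference 0.0048 ± 0.27).

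The promoters of both type 8 genes are shown because type 8 was the collagen type with the largest measured difference. The windows run from 250 bases before to 50 bases after the annotated gene start and come from RefSeq on build GRCr8: chr11:56246532-56246831 on the plus strand for Col8a1 and chr5:143870519-143870818 on the plus strand for Col8a2. Capitals mark GC boxes, GGGCGG or its reverse complement CCGCCC, the letters bound by factors of the Sp family.
Col8a1: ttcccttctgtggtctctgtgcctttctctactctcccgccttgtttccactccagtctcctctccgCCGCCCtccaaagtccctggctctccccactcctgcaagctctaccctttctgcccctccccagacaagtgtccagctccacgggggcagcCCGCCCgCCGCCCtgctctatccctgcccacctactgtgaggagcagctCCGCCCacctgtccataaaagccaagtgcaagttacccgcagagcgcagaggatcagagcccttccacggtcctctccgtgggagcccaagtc
Col8a2: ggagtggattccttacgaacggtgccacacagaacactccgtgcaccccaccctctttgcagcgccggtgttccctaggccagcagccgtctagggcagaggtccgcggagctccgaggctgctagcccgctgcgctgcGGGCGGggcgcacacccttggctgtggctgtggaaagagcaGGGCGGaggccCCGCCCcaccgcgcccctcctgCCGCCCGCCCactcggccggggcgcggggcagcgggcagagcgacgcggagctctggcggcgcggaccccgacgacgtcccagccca
The Col8a1 window has 4 GC boxes and the Col8a2 window 5, with overlaps counted, at a GC content of 62.7% and 73.7%, against a median of 51.7% over 33469 promoters of the same length. GC boxes occurred in 33.1% of all those windows and in those of 18 of the 30 chain genes that have a window in the table. Neither type 8 window holds the TATA box letters TATAAA, the CCAAT box letters CCAAT or the AP-1 site letters TGACTCA on either strand. In that order these occurred in 14.2%, 37.5% and 4.63% of all windows, and in 4, 8 and 0 of the 30 chain genes. A match is a run of letters in this window and was not tested as a binding site.

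**Figure D2:**
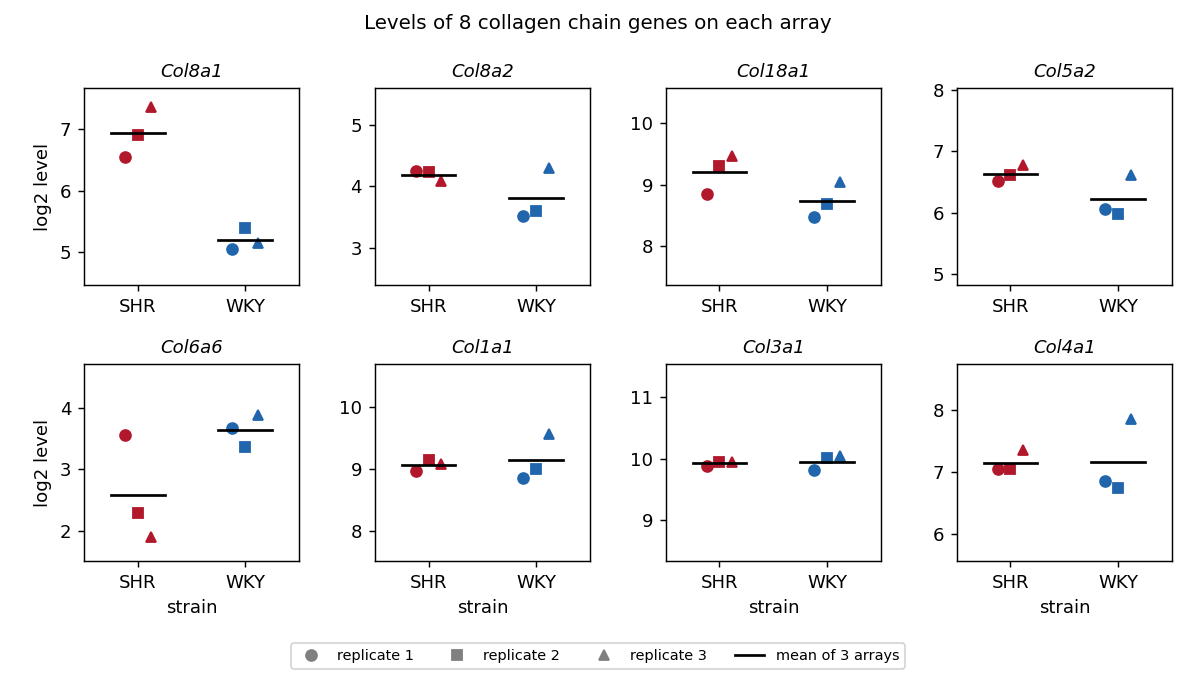
Log2 level of 8 collagen chain genes on each array, with SHR in red and WKY in blue, 1 marker shape per replicate number and a bar at the mean of 3 arrays. The vertical axes differ in position and have the same span. Col8a1 is separated between the strains, and Col6a6 is spread widely in SHR. WKY replicate 3 lies within the SHR range for Col18a1 and Col5a2, and above it for Col8a2, Col1a1, Col3a1 and Col4a1.

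The fibril-forming family has 11 measured chains, none of which passed, with 2 measured above WKY and 9 below it and a median difference of -0.07. Without WKY replicate 3 the count was 8 above and the median 0.07, so the sign of this family's median rests on 1 array. The most plentiful collagens of the aortic wall, types 1 and 3, were close in the strains. Col1a1 and Col1a2 encode the chains of type 1 collagen, the stiff fibrils of the wall. Col1a1 was 8.9771, 9.1522 and 9.0857 in SHR, against 8.8541, 8.9995 and 9.5750 in WKY, and Col1a2 was 9.95, 10.09 and 10.07 in SHR, against 9.89, 10.04 and 10.19 in WKY. Their differences of -0.07 ± 0.21 and -0.0025 ± 0.15 were smaller than their standard errors. Without WKY replicate 3 these differences were 0.14 and 0.07. Col3a1, the single chain of type 3 collagen in distensible fibrils, was 9.89, 9.95 and 9.94 in SHR, against 9.81, 10.01 and 10.05 in WKY, a difference of -0.03 ± 0.14. The signs of Col1a2 and Col3a1 turned under a further quantile normalization and under median centring.

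Type 5 collagen starts fibrils and sets their width. Its 3 chains gave differences of both signs. Col5a2 was 6.51, 6.61 and 6.77 in SHR, against 6.06, 5.99 and 6.62 in WKY. All SHR arrays were above WKY replicates 1 and 2, while WKY replicate 3 lay within the SHR range. The difference was 0.41 ± 0.20 (limma adjusted p = 0.923), and 0.61 without WKY replicate 3. Col5a1 was 6.39, 6.86 and 6.93 in SHR, against 6.57, 6.69 and 7.77 in WKY, with WKY replicate 3 above every other array by a wide margin. The difference of -0.28 ± 0.33 became 0.10 without that array. The second Col5a1 probe set gave 4.62, 5.06 and 4.98 in SHR, against 4.57, 5.04 and 4.96 in WKY, and did not show the high value on WKY replicate 3. Its difference was 0.03. Col5a3, named beyond the naming rule after its values were seen, was 4.57, 3.32 and 3.05 in SHR, against 4.14, 3.36 and 4.53 in WKY, with a wide spread in both strains (difference -0.36 ± 0.44). Leaving out 1 array at a time gave differences between -0.82, without SHR replicate 1 (limma unadjusted p = 0.0472; adjusted p = 0.807), and -0.066, without SHR replicate 3.

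Chains best known from cartilage fibrils gave no passing gene. Col2a1, the chain of type 2 collagen, was 2.15, 2.01 and 2.52 in SHR, against 2.18, 2.31 and 2.90 in WKY, around the array medians. Col11a1, which joins type 2 and type 5 chains in mixed fibrils, was 3.91, 4.12 and 4.19 in SHR, against 3.86, 4.04 and 3.86 in WKY (difference 0.16 ± 0.15). The SHR and WKY ranges of Col11a1 overlapped. Col11a2 had a difference of -0.02 ± 0.21. Col24a1 was 2.08, 2.20 and 2.44 in SHR, against 2.19, 2.26 and 2.71 in WKY, and stayed around the medians. Col27a1, a further fibril chain, was 3.44, 3.83 and 3.45 in SHR, against 3.55, 3.70 and 4.69 in WKY. Its difference of -0.41 ± 0.31 came to -0.06 without WKY replicate 3, the array that stood above all others.

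The 5 measured chains of type 4 collagen, the network of basement membranes, gave no passing gene and a median difference of 0.06. Without WKY replicate 3 the median was 0.35, and all 5 were measured above WKY. Col4a1 was 7.04, 7.05 and 7.36 in SHR, against 6.86, 6.75 and 7.86 in WKY. Its partner Col4a2, which joins it in the common basement membrane molecule and is given per array after its values were seen, was 5.93, 5.84 and 6.30 in SHR, against 5.69, 5.76 and 6.41 in WKY. On both genes the 3 SHR arrays lay above WKY replicates 1 and 2 and below WKY replicate 3. Their differences were -0.0059 ± 0.30 and 0.07 ± 0.24, and 0.35 and 0.30 without WKY replicate 3. The sign of Col4a1 turned under median centring, as did that of Col4a5. Col4a3 and Col4a4, chains of the basement membranes of kidney and lung, had differences of 0.06 ± 0.27 and 0.17 ± 0.26, and of 0.35 and 0.47 without that array. Col4a5, their partner on the X chromosome, was 7.09, 7.65 and 7.66 in SHR, against 7.28, 7.58 and 7.56 in WKY, without a high value on WKY replicate 3 and with a difference of -0.0086 ± 0.20.

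Col4a1 and Col4a2 start head to head on opposite strands of chromosome 16, and their windows are shown because they share most of the sequence. The starts are 77 bases apart and the windows share 176 bases: chr16:84885347-84885646 on the plus strand for Col4a1 and chr16:84885471-84885770 on the minus strand for Col4a2 (RefSeq, GRCr8). Capitals mark GC boxes (GGGCGG or CCGCCC) and CCAAT boxes (CCAAT or ATTGG).
Col4a1: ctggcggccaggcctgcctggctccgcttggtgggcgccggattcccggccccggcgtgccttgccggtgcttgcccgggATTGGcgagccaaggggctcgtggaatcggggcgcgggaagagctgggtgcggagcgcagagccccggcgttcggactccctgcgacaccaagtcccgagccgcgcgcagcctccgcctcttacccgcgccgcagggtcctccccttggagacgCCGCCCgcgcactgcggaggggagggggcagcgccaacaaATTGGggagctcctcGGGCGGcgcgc
Col4a2: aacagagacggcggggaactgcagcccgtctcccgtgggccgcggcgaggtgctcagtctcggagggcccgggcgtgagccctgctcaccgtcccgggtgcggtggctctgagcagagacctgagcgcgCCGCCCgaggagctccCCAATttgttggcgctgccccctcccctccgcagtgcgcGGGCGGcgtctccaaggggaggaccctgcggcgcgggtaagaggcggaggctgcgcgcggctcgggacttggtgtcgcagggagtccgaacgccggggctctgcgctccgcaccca
Each window has 2 GC boxes, which are the same 2 sites in the shared bases. The Col4a1 window has 2 CCAAT boxes and the Col4a2 window 1, and neither holds TATAAA or TGACTCA. Their GC contents are 75% and 73.7%. The mean deviations of the type 4 chains from their means over all arrays were -0.12, -0.02 and 0.23 in SHR, against -0.28, -0.26 and 0.46 in WKY.

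Type 6 collagen forms beaded filaments that link cells to the fibrils around them. Col6a6 encodes a chain related to Col6a3 and had the second smallest p of all the chains. Its level was 3.55, 2.28 and 1.89 in SHR, against 3.67, 3.37 and 3.88 in WKY, a mean of 2.58 ± 0.87 in SHR and 3.64 ± 0.26 in WKY (SD, n = 3 each). Of its SHR values, 2 lay below every WKY value and the other inside the WKY range. The difference was -1.06 ± 0.40 (limma unadjusted p = 0.0327; adjusted p = 0.875). The same order, SHR replicate 1 highest and SHR replicate 3 lowest, was seen in the means of the white adipocyte and adventitial fibroblast markers. It was also seen in the endothelial, macrophage, brown adipocyte and Schwann cell lists, so it is not particular to 1 cell type. The part of these cells in the result was not tested. With the adipocyte marker mean as a covariate the difference was -0.77 ± 0.26 (limma unadjusted p = 0.0237; adjusted p = 0.671). Without SHR replicate 1 it was -1.55 (limma unadjusted p = 0.000281; adjusted p = 0.121), and without SHR replicate 3 it was -0.72. Without SHR replicate 1 and WKY replicate 3 together it was -1.43 (limma unadjusted p = 0.00039). The smallest limma adjusted p of Col6a6 over all alternatives was 0.0680. Col6a2, a chain of the main type 6 molecule, was 7.70, 7.80 and 8.09 in SHR, against 7.42, 7.46 and 8.29 in WKY. SHR arrays lay between WKY replicates 1 and 2 below and WKY replicate 3 above, and the difference of 0.14 ± 0.26 was 0.43 without the last. Col6a3 had a difference of 0.23 ± 0.22, between 0.085 without WKY replicate 2 and 0.42 without SHR replicate 2.

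The plot of chains against adipocyte markers sets 4 chains beside the markers, and the chains and the plot were chosen after their values were seen. Col5a3 and Col14a1, like Col6a6, had their highest SHR level on replicate 1, where the markers were at 7.85, and their lowest on replicate 3, where they were at 4.36. Col15a1 ran the other way in SHR. In WKY the markers were highest on replicate 1, at 7.75, and so was Col14a1. Col6a6 and Col5a3 were highest on WKY replicate 3, where the markers were at 6.41. Over all 36 chains, SHR replicate 1 held the highest SHR value for 7 and the lowest for 22 (61.1%), against 38.0% lowest over all tested genes. With the marker mean as a covariate the differences of Col5a3, Col14a1 and Col15a1 were -0.08, 0.35 and 0.17, against -0.36, 0.04 and 0.28 without it.

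**Figure D3:**
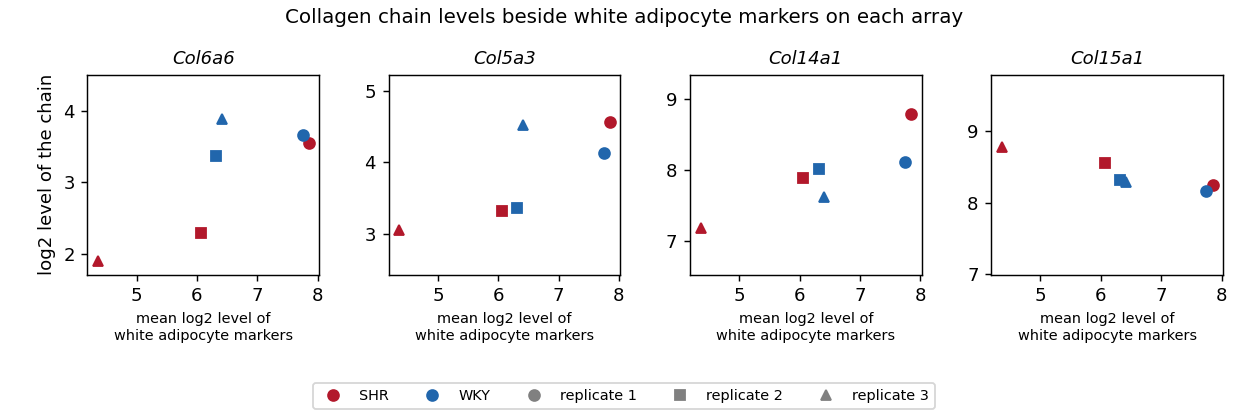
Log2 level of Col6a6, Col5a3, Col14a1 and Col15a1 (vertical axes, same span) against the mean log2 level of 8 white adipocyte markers (horizontal axis) on each of the 6 arrays, with SHR in red, WKY in blue and 1 marker shape per replicate number. SHR replicates 1 and 3 lie at the ends of the horizontal axis, at 7.85 and 4.36. Col6a6, Col5a3 and Col14a1 are lowest on SHR replicate 3, and Col15a1 is highest there.

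The fibril-associated collagens, whose molecules sit on the surface of fibrils, had 7 measured chains and no passing gene, with 5 measured above WKY and a median difference of 0.05. Col12a1, a chain found on type 1 fibrils of tissues under load, was 6.50, 4.53 and 5.49 in SHR, against 5.23, 5.10 and 4.06 in WKY. It had the widest range of all 36 chains within SHR, and its difference of 0.71 ± 0.52 (limma adjusted p = 0.923) became 0.34 without WKY replicate 3 and 0.21 without SHR replicate 1. It was 0.92 without WKY replicate 1 and 1.196 without SHR replicate 2 (limma unadjusted p = 0.0380; adjusted p = 0.992). Without SHR replicate 1 and WKY replicate 3 together it was -0.16. Col14a1, a fibril-surface chain of adventitial and other fibroblasts, was 8.79, 7.88 and 7.18 in SHR, against 8.12, 8.01 and 7.61 in WKY, and the SHR arrays covered the whole WKY range. Its difference was 0.04 ± 0.38. Col16a1, a minor chain that joins fibrils and microfibrils, was 3.90, 4.11 and 4.40 in SHR, against 3.58, 3.63 and 4.27 in WKY. All SHR arrays were above WKY replicates 1 and 2, and the difference was 0.31 ± 0.23, or 0.53 without WKY replicate 3.

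Among the other members of the family, Col9a2, a chain of the cartilage collagen of type 9, was 3.02, 3.37 and 3.04 in SHR, against 2.55, 2.78 and 3.10 in WKY. WKY replicate 3 lay within the SHR range and the other WKY arrays below it, with a difference of 0.34 ± 0.19. Col9a1, of the same type, lay under the median of every array other than WKY replicate 3 and had a difference of -0.17 ± 0.31. Without that array the difference of Col9a1 was 0.19. Col19a1 was 4.24, 4.10 and 4.85 in SHR, against 4.11, 4.41 and 4.97 in WKY, and Col20a1 was 2.80, 2.51 and 2.62 in SHR, against 2.77, 2.44 and 2.58 in WKY. Neither differed beyond its spread (-0.10 ± 0.28 and 0.05 ± 0.16).

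The multiplexins, types 15 and 18, are basement membrane collagens that carry sugar chains, and their ends can be cut off as restin and endostatin, which act on vessel growth. Both were measured higher in SHR without passing. Col18a1 was 8.85, 9.31 and 9.46 in SHR, against 8.48, 8.69 and 9.04 in WKY, a mean of 9.21 ± 0.32 in SHR and 8.74 ± 0.29 in WKY (SD, n = 3 each). SHR replicate 1 lay below WKY replicate 3 and above the other WKY arrays. The difference was 0.47 ± 0.22 (limma adjusted p = 0.923), and 0.63 without WKY replicate 3. Col15a1 was 8.25, 8.55 and 8.79 in SHR, against 8.15, 8.31 and 8.29 in WKY, with SHR replicate 1 inside the WKY range and no high value on WKY replicate 3. The difference was 0.28 ± 0.18 (limma adjusted p = 0.923).

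The transmembrane collagens are anchored in the cell surface, and none of the 3 measured chains passed. Col13a1, found at cell adhesion sites and the neuromuscular junction, was 4.36, 4.66 and 5.14 in SHR, against 4.40, 4.82 and 5.38 in WKY (difference -0.15 ± 0.30). Without WKY replicate 3 the difference of Col13a1 was 0.11. Col17a1, the collagen of epithelial hemidesmosomes, was 2.72, 2.82 and 2.61 in SHR, against 2.72, 2.81 and 3.52 in WKY. The 2 lower WKY arrays lay among the SHR arrays, and the difference of -0.30 ± 0.23 was -0.05 without WKY replicate 3. Col23a1 was 4.54, 4.58 and 4.92 in SHR, against 4.39, 4.58 and 4.89 in WKY (difference 0.06 ± 0.19). Col7a1, the anchoring fibril chain of skin, was 2.34, 2.55 and 2.38 in SHR, against 2.33, 2.21 and 2.93 in WKY (difference -0.07 ± 0.21, or 0.15 without WKY replicate 3). Col26a1, a collagen first found in testis and ovary, was 1.25, 1.21 and 1.26 in SHR, against 1.33, 0.95 and 1.50 in WKY, below the median of every array.

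**Figure D4:**
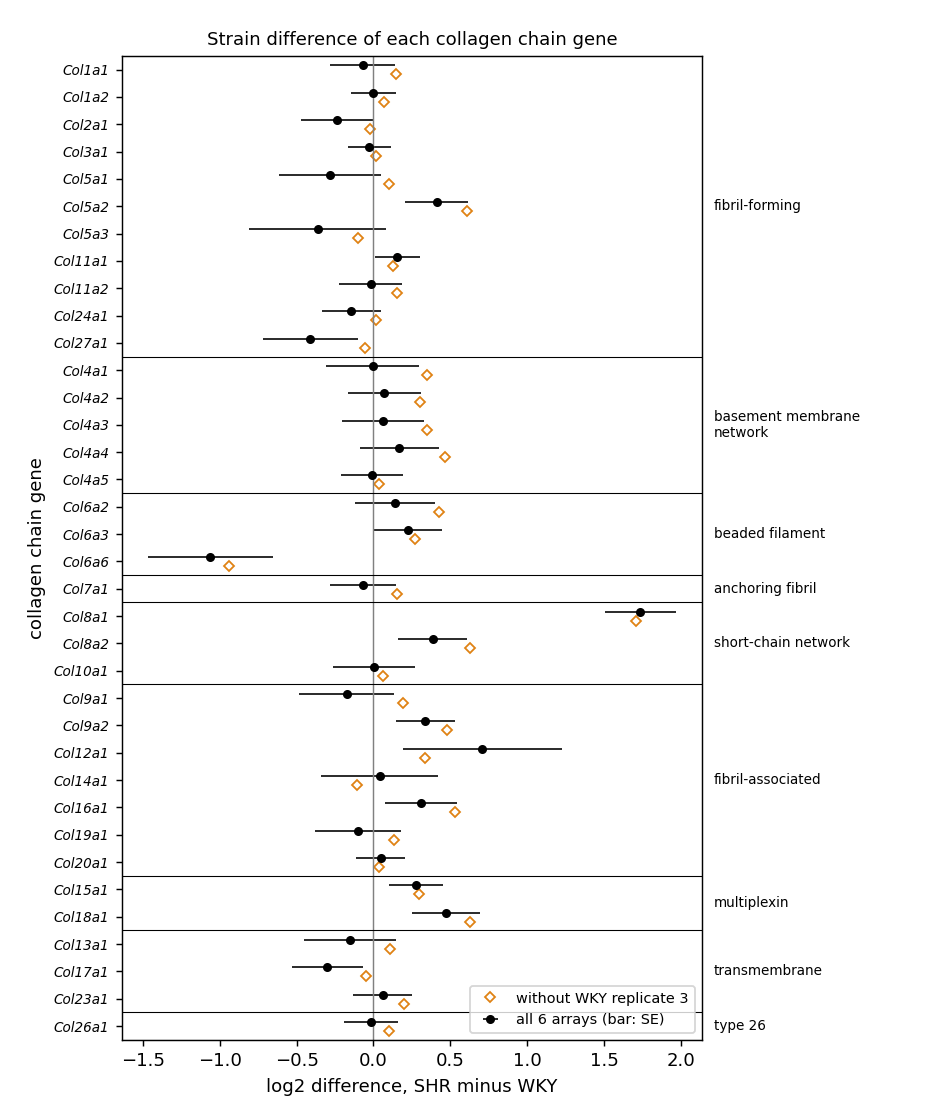
Log2 difference, SHR minus WKY, of each of the 36 chains (rows, grouped by family), with black points and SE bars for the fit on all 6 arrays and open orange diamonds for the fit without WKY replicate 3. Points lie on both sides of 0 with all arrays, 18 above and 18 below, and 30 of 36 diamonds lie above 0. Col8a1 stands apart at 1.74 and Col6a6 at -1.06.

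The comparison thus depended on WKY replicate 3 for many chains, as the plot of strain differences shows. That array held the highest of the WKY values for 28 of 36 chains (77.8%), against 37.0% of all tested genes and 23.8% of the 9743 tested genes above every array median. It held the lowest WKY value for 2 chains, Col12a1 and Col14a1. Without it, 30 of 36 chains (83.3%) were measured higher in SHR, against 49.0% of all tested genes, and the median difference of the chains was 0.15, against -0.0057 for all. The sign differed for 14 chains, 13 of which were below 0 with the array and above 0 without it. At an unadjusted limma p under 0.05 there were then 8 chains, all higher in SHR (Col4a4, Col5a2, Col6a2, Col8a1, Col8a2, Col9a2, Col16a1 and Col18a1), where 6.76% of all probe sets met that level, and no chain passed after adjustment. For 12 chains all 3 SHR arrays lay above both remaining WKY arrays (Col4a1, Col4a2, Col4a3, Col4a4, Col5a2, Col6a2, Col7a1, Col8a1, Col8a2, Col9a2, Col16a1 and Col18a1), where 12.4% of all tested probe sets lay above in this way. For 0 chains they lay below both, where 11.5% of all probe sets did. This setting leaves 2 WKY arrays. Why the chains were high on that array was not tested.

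Over 5 lists of other genes of the collagen pathway, WKY replicate 3 held the highest WKY value for 11 of 67 tested genes (16.4%) and the lowest for 47 (70.1%). Among all tested genes above every array median the shares were 23.8% and 61.5%. In the list for hydroxylation, folding and secretion of procollagen, 21 of 24 genes were tested, and WKY replicate 3 held the lowest WKY value for 15 of them (71.4%), against 46.1% of all tested genes and 61.5% of those above every median. Measured differences were above 0 for 19 of the 21 (90.5%), with a median of 0.28 over all arrays. Without WKY replicate 3 they were above 0 for 15 (71.4%), with a median of 0.16. Over all tested genes 50.9% were above 0, or 49.0% without that array. Among tested genes above every array median the shares were 57.0% and 45.2%. No gene of the list passed. P3h4, a partner of lysyl hydroxylase in collagen modification, was 5.97, 6.23 and 6.36 in SHR, against 5.51, 5.65 and 5.01 in WKY, without overlap of the strains. Its difference was 0.80 ± 0.21 (SE, limma adjusted p = 0.550), or 0.61 without WKY replicate 3. The proline hydroxylase genes P4ha3 and P3h3 had differences of 0.49 and 0.46, and Creb3l1, a transcription factor that drives collagen production, one of -0.62, each at an unadjusted limma p under 0.05. With P3h4 they were the 4 of 21 at that level, which 5.55% of all probe sets met. The strains did not overlap for 7 of the 21, all higher in SHR, against 12.1% of all probe sets.

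In the list for trimming and cross-linking outside the cell, 13 of 16 genes were tested and none passed. Of these, 4 were measured higher (30.8%, against 50.9% of all tested genes) and 9 lower. Without WKY replicate 3 the number higher was again 4. Adamts3, a protease that removes the leading end of procollagen, was at 1.48, 1.40 and 1.52 in SHR, against 1.66, 1.88 and 2.22 in WKY, under every array median. Tgm2, a transglutaminase that cross-links matrix proteins, was 8.61, 8.60 and 8.48 in SHR, against 8.87, 8.96 and 8.88 in WKY. The strains did not overlap for Tgm2, and its difference was -0.34 ± 0.13 (SE; limma adjusted p = 0.882). Adamts3 and Tgm2 were the 2 of 13 at an unadjusted limma p under 0.05, which 5.55% of all probe sets met. They were also the 2 without overlap, against 12.1% of all probe sets. Of the fibril-binding proteoglycans and their like, 9 of 12 were tested. Measured higher were 6 (66.7%), or 3 without WKY replicate 3 (33.3%), and none was at an unadjusted limma p under 0.05. Their median difference was 0.04, and -0.07 without that array. Of the receptors, 10 of 14 were tested, with 8 measured higher (80%), or 7 without it (70%), and likewise none. The smallest p of the receptors was that of Antxr1, a collagen-binding membrane protein, with a difference of 0.35 ± 0.16 (SE).

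The breakdown list held the largest pathway differences, with 14 of 16 genes tested, 11 measured higher (78.6%) and none passing. Without WKY replicate 3, 8 were measured higher (57.1%), and the median difference was 0.01, against 0.08 with all arrays. Over all tested genes the shares higher were 50.9% with all arrays and 49.0% without WKY replicate 3. Timp1, an inhibitor of the metalloproteinases that cut collagen, was 8.62, 8.77 and 8.59 in SHR, against 7.78, 7.85 and 7.26 in WKY. All SHR values were above all WKY values, and the difference was 1.03 ± 0.19 (SE; limma adjusted p = 0.277). Ctsk, a protease that cuts the collagen helix, was 7.38, 7.30 and 7.17 in SHR, against 6.37, 6.43 and 5.54 in WKY. The difference was 1.17 ± 0.25 (SE; limma adjusted p = 0.398), again without overlap. Prodh, which starts the breakdown of the proline released from collagen, was 3.92, 3.91 and 3.95 in SHR, against 4.96, 4.46 and 5.46 in WKY, a difference of -1.03 ± 0.25 (SE; limma adjusted p = 0.474). Without WKY replicate 3 the differences of Timp1, Ctsk and Prodh were 0.84, 0.88 and -0.78. With all arrays these were the 3 of 14 at an unadjusted limma p under 0.05, against 5.55% of all probe sets. The strains did not overlap for 3 genes of the list higher and 1 lower in SHR, against 12.1% of all probe sets. The plot of pathway groups by array shows the chains above 0 and the other groups below 0 on WKY replicate 3. The 5 lists averaged -0.35, -0.26, -0.34, -0.15 and -0.24 there, in the order described. Tested genes above every array median also lay below 0 on that array, at a mean of -0.18.

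**Figure D5:**
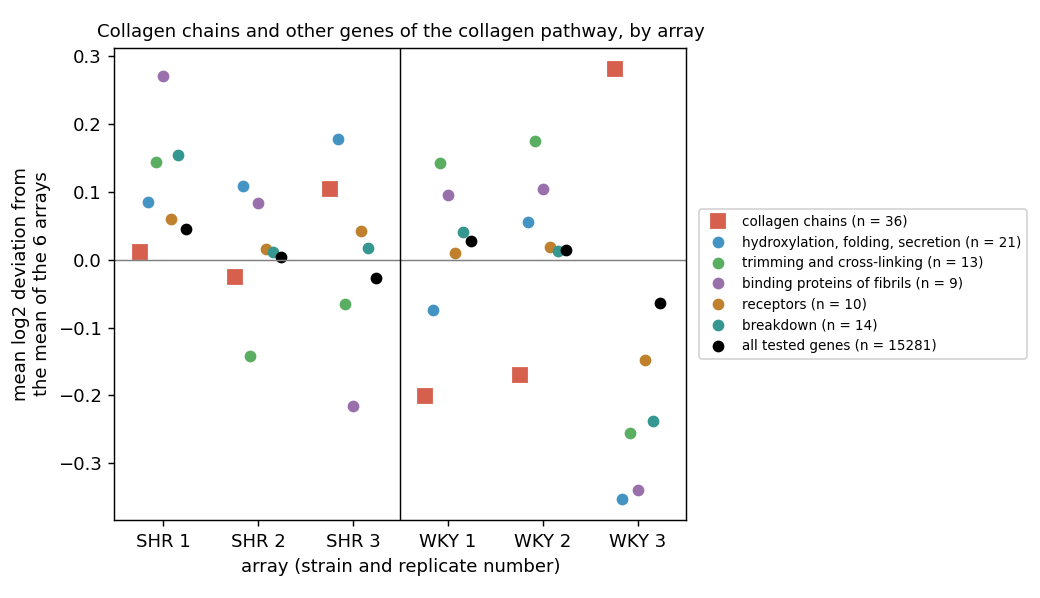
Mean deviation of each group of genes from the genes' own means over the 6 arrays, in log2 units, on each array, for the collagen chains (squares), 5 pathway lists and all 15281 tested genes (circles). On WKY replicate 3 the chains stand at 0.28 and all other groups below 0, the hydroxylation, folding and secretion list at -0.35. The 9743 tested genes above every array median, not plotted, averaged -0.18 on that array.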

How the data were processed

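RNA from the thoracic aorta was measured on 6 Affymetrix Rat Gene 2.0 ST arrays, 3 of SHR and 3 of WKY, grouped by the sample titles. Log2 values of each probe set were deposited. The submitters' processing notes name RMA and Affymetrix Expression Console 1.2.1 as the authors' tools, and RMA covers background correction, quantile normalization and probe summary. The log2 base follows from RMA and the range of values. The genome build behind the probe sets is not given in the sources used here. Symbols came from the platform annotation, and a gene was named only from a probe set with 1 symbol (18511 probe sets). Probe sets with a mean at or above the 25th percentile (21659) entered a limma fit (version 3.58.1, run under R 4.3.3, lmFit and eBayes, strain as the only term, two-sided), with Benjamini-Hochberg adjustment over all of them. Passing means an adjusted p under 0.05. Where a gene had several tested probe sets, that of highest mean stands for it, giving 15281 genes. The fit was tested on simulated data, with 200 changed probe sets in each run. The simulated noise was independent and of equal spread on all arrays, with no array apart like WKY replicate 3. Recovery on the measured arrays may therefore differ. At an adjusted p under 0.05 the fit recovered 0% of simulated log2 changes of 1, 86.5% of 2 and 98.5% of 3. A gene that did not pass is thus not shown to be equal in the strains. Arrays have no sequencing depth, and their number limits the precision. Each probe set is compared only with itself across arrays.

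Every chain is accounted for, with values on each array for the chain of highest mean in each collagen type, the 12 chains of smallest unadjusted p and the 10 of highest mean. Values on each array of Col4a2, Col4a3, Col4a4 and Col5a3 were added after they were seen. Of each pathway list up to 5 genes with the smallest unadjusted p may be named. The members and the lists were chosen with earlier results of these data known. Promoter windows are those of RefSeq on build GRCr8, which has a window for 30 of the 36 genes. The alternatives were a replicate block, no filter or one at the 50th percentile, median centring, a second quantile normalization, array weights, a robust prior with an intensity trend, a white adipocyte covariate, the mean of probe sets, an adjusted p under 0.10, current RefSeq symbols, leaving out each array in turn and, added after the data had been seen, leaving out SHR replicate 1 and WKY replicate 3 together.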

Additional observations from a re-analysis of the deposited data

How the results depend on the processing

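The difference of Col8a1 was above 0 under all 16 alternatives and passed under 2, array weights and leaving out SHR replicate 1 and WKY replicate 3 together, which made the count of passing chains 1 in place of 0. It was also 1 at an adjusted p under 0.10, which 30 of all probe sets met. The array weights were lowest on SHR replicate 1 and WKY replicate 3, so the 2 passing settings are not independent. Among 36 chains, 12 kept their sign in every setting (Col5a2, Col5a3, Col6a3, Col6a6, Col8a1, Col8a2, Col9a2, Col11a1, Col15a1, Col16a1, Col17a1 and Col18a1), and 87 of 571 values over all chains and settings had the other sign. The median difference of the chains, 0.0012, was 0.15 without WKY replicate 3, 0.14 with array weights and 0.21 without SHR replicate 1 and WKY replicate 3. Over all probe sets, 15 passed, against 65 with array weights, 3 with a replicate block, 115 without SHR replicate 1 and WKY replicate 3, and 2 to 5 without 1 array. Whether replicate numbers pair the arrays cannot be settled with 3 arrays per strain. The deviations of same-numbered arrays correlated at 0.35, -0.08 and 0.23. Replicates 1 and 3 correlated most with the array of their own number in the other strain, and replicate 2 did not. With the block, 3 chains were at an unadjusted p under 0.05, against 2 without it, as Col18a1 joined at 0.0235, against 0.0697. Differences with the other sign were, with array weights, Col1a1 0.13, Col1a2 0.078, Col3a1 0.015, Col4a1 0.27, Col4a5 0.11, Col5a1 0.096, Col7a1 0.15, Col9a1 0.067, Col11a2 0.17, Col13a1 0.073, Col14a1 -0.18, Col19a1 0.028, Col20a1 -0.0057 and Col26a1 0.078. With further quantile normalization they were Col1a2 0.036, Col3a1 0.0060, Col14a1 -0.016 and Col26a1 0.023. With median centring they were Col1a2 0.045, Col3a1 0.019, Col4a1 0.042, Col4a5 0.039, Col11a2 0.029 and Col26a1 0.029. With the adipocyte covariate they were Col4a2 -0.028, Col4a3 -0.054, Col10a1 -0.18 and Col23a1 -0.037. Without SHR replicate 1 and WKY replicate 3 they were Col1a1 0.19, Col1a2 0.11, Col2a1 0.017, Col3a1 0.036, Col4a1 0.40, Col4a5 0.22, Col5a1 0.27, Col7a1 0.19, Col9a1 0.16, Col11a2 0.20, Col12a1 -0.16, Col13a1 0.29, Col14a1 -0.53, Col19a1 0.21, Col20a1 -0.040, Col24a1 0.097, Col26a1 0.098 and Col27a1 0.013. Leaving out 1 array at a time gave, for the chains whose sign turned, Col1a1 -0.22 to 0.14, Col1a2 -0.078 to 0.071, Col3a1 -0.10 to 0.016, Col4a1 -0.21 to 0.35, Col4a2 -0.068 to 0.30, Col4a3 -0.090 to 0.35, Col4a4 -0.019 to 0.47, Col4a5 -0.11 to 0.18, Col5a1 -0.50 to 0.099, Col6a2 -0.012 to 0.43, Col7a1 -0.21 to 0.15, Col9a1 -0.39 to 0.19, Col10a1 -0.23 to 0.30, Col11a2 -0.20 to 0.16, Col13a1 -0.39 to 0.11, Col14a1 -0.38 to 0.42, Col19a1 -0.33 to 0.14, Col20a1 -0.031 to 0.13, Col23a1 -0.061 to 0.20, Col24a1 -0.24 to 0.018 and Col26a1 -0.17 to 0.10. The cause was not tested. The number of arrays limits all of these values.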

Other observations

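The genes on either side of Col8a1 in the RefSeq order of GRCr8, looked up after the values of Col8a1 had been seen, did not pass. Dcbld2, a membrane protein of vascular cells, was measured at 6.38, 6.36 and 6.43 in SHR, against 5.95, 6.21 and 5.38 in WKY. All SHR arrays were above all WKY arrays for Dcbld2, with a difference of 0.54 ± 0.22 (SE; limma adjusted p = 0.889), or 0.31 without WKY replicate 3. Filip1l, on the other side, was 2.94, 3.20 and 3.49 in SHR, against 3.23, 3.32 and 3.37 in WKY, with overlap of the strains and a difference of -0.10 ± 0.18 (SE). The next genes, St3gal6, Ftdc2, Cmss1 and Tmem30c, had differences of 0.40, 0.0085, 0.02 and -0.03. That of St3gal6 was -0.11 without WKY replicate 3.

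Col4a3 and Col4a4 also face each other, with starts 413 bases apart on chromosome 9 and windows that share 88 bases (RefSeq, GRCr8). Both are given per array beyond the naming rule, after their values were seen. Col4a3 was 3.88, 3.98 and 4.34 in SHR, against 3.73, 3.71 and 4.58 in WKY. Col4a4 was 4.54, 4.45 and 4.57 in SHR, against 4.13, 3.98 and 4.95 in WKY. On both genes all SHR arrays lay between WKY replicates 1 and 2 below and WKY replicate 3 above.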
